A study of Mus musculus with 96 samples.

Results

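Langerhans cells are the resident antigen-presenting cells of the epidermis, and 9 genes that mark them or their antigen presentation were followed through the day in mouse back-skin epidermis. The genes were given by name: Cd207, Csf1r, H2-Aa, H2-Ab1, H2-Eb1, Cd74, Cd86, Itgax and Ly75. All 9 were found among the 22384 genes listed for every genotype. Of these, 6 averaged 1 RPKM or more (read counts scaled to gene length and library size) and were among the 12144 genes tested. Cd86, Itgax and Ly75 were below that level.

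Messenger RNA was sequenced from the dispase-separated epidermis of 96 mice, all C57BL/6 males of 8 weeks of age under 12 h of light and 12 h of darkness, with 1 library each. Arntl encodes the clock activator BMAL1, and a stopFL allele holds a stop cassette that Cre removes. K14Cre is driven by the keratin 14 promoter of basal keratinocytes, and Syt10-Cre acts in the brain. WT mice had Arntl wt/wt with K14Cre wt/tg and Syt10-Cre tg/wt, so the controls carried both Cre transgenes. The other 3 genotypes were Arntl stopFL/stopFL: RERE with K14Cre tg/wt and Syt10-Cre tg/wt, EpiRE with K14Cre tg/wt and Syt10-Cre wt/wt, and BRE with K14Cre wt/wt and Syt10-Cre tg/wt. Each genotype had 24 mice, 4 at each of 6 zeitgeber times (ZT, hours after lights on) from ZT0 to ZT20. Keratinocytes are the epidermal cells that K14Cre addresses, and whether Langerhans cells of RERE or EpiRE mice regained Arntl cannot be read from these libraries of whole epidermis. In such bulk samples, fewer Langerhans cells and less RNA per cell cannot be told apart.

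Langerhans cells form a network between keratinocytes, take up antigen, and carry it to lymph nodes where they show it to T cells. Langerin, encoded by Cd207, is the lectin that gives them their Birbeck granules. Peptides from engulfed protein are shown on MHC class II molecules, which are built with the help of the invariant chain encoded by Cd74 and switched on by the coactivator CIITA. Keratinocytes keep the cells in place, in part by making interleukin 34, a ligand of the receptor encoded by Csf1r.

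The promoters of H2-Aa and H2-Eb1 are shown because these genes went up and down together from mouse to mouse. That of Cd207 is shown because its transcript varied with theirs. Whether promoter sequence has a part in this variation was not tested. H2-Aa (ENSMUSG00000036594) is at chr17:34282744-34287823 on the minus strand of mm10, and H2-Eb1 (ENSMUSG00000060586) at chr17:34305867-34316674 on the plus strand. H2-Ab1, at chr17:34257689-34269419 on the plus strand, lies on the other side of H2-Aa. Cd207 (ENSMUSG00000034783) is at chr6:83671215-83677857 on the minus strand. Of the weaker members, Cd86 is at chr16:36603869-36666081 (minus), Itgax at chr7:128129547-128150657 (plus) and Ly75 at chr2:60292103-60383303 (minus). The 250 bases before each start are given 5′ to 3′ from RefSeq (GRCm38.p6), at chr17:34287824-34288073, chr17:34305617-34305866 and chr6:83677858-83678107. Capitals mark the Y box letters CTGATTGG.
H2-Aa: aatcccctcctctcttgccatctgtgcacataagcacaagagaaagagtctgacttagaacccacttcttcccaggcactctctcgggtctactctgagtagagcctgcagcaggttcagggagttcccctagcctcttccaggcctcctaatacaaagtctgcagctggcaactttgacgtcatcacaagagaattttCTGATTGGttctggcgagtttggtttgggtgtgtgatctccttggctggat
H2-Eb1: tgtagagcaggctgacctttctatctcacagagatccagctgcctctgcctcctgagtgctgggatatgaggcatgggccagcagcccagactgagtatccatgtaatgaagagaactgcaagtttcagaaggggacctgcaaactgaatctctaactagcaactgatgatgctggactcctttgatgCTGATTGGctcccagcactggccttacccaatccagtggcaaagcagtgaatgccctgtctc
Cd207: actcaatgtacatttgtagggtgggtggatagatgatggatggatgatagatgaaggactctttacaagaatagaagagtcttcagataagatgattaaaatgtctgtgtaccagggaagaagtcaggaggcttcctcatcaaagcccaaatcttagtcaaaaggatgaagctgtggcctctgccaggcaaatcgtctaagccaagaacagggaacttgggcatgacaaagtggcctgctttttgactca

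The Y box begins 51 bases before the start in H2-Aa and 62 bases before it in H2-Eb1, on the strand shown in both. Promoter windows of 300 bases (250 before and 50 after the start) were used for 5 of the 9 genes and searched on both strands. Ly75, the gene of the endocytic receptor DEC-205, also held CTGATTGG, beginning 80 bases before its start. Cd207 and Itgax held none. These letters occur in 4.10% of the 32851 windows of that length in the table. They overlap the shorter CCAAT box (CCAAT, read on the other strand), which 37.4% of windows hold. The E-box CACGTG, the sequence that CLOCK and BMAL1 bind, was in 0 of the 5 windows and in 7.15% of all windows. A match is a description of the letters in the window.

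Library sizes ran from 11580000 to 33320000 reads (median 16980000), and the medians of the genotypes from 15130000 (EpiRE) to 18330000 (WT). Keratins that define the labelled tissue were abundant, with a median level of 6314 RPKM for basal Krt5 and 6906 RPKM for suprabasal Krt10. Arntl, counted over the whole gene, ranged from 4.66 to 27.3 RPKM in WT and 4.73 to 26.5 in RERE, with 9.52 to 23.9 in EpiRE and 11.3 to 14.5 in BRE. Its fitted peak-to-trough log2 difference was 2.31 ± 0.15 (SE) in WT and 2.16 ± 0.16 in RERE, with 0.76 ± 0.15 in EpiRE and 0.18 ± 0.05 in BRE, and all 4 passed the rhythm test described below.

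Antigen presentation transcripts were the most abundant of the 9. Cd74 ranged from 16.6 to 72.5 RPKM over the 96 mice (median 33.1, from 309 to 2011 reads). H2-Ab1, the class II beta chain of I-A, ranged from 5.92 to 28.6 RPKM (median 12.3), and its alpha chain partner H2-Aa from 6.58 to 24.7 RPKM (median 11.9). H2-Eb1, the beta chain of I-E, ranged from 5.0 to 19.6 RPKM (median 8.72). In every library Cd74 was above each of them, since the highest ratios to Cd74 were 0.468 for H2-Ab1, 0.488 for H2-Aa and 0.333 for H2-Eb1. H2-Aa and H2-Ab1, next to each other in this order, overlapped over most of their ranges.

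The cell markers were weaker. Csf1r ranged from 2.16 to 9.23 RPKM (median 4.22, from 217 to 1031 reads) and Cd207 from 0.913 to 7.67 RPKM (median 2.64, from 18 to 233 reads). The remaining members rested on few reads: the median was 10 reads for Cd86 (a costimulatory ligand for T cells), 14.5 for Itgax (the integrin CD11c) and 15 for Ly75. Cd86 had 0 reads in 2 of 96 libraries and Ly75 in 1. Their ranges, up to 0.694 RPKM for Cd86, 0.665 for Itgax and 0.385 for Ly75, overlapped each other throughout.

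WT mice held the lowest median of each of the 9 genes, set side by side with the other genotypes. Cd207 had a lowest, median and highest value of 0.913, 1.96 and 3.99 RPKM in WT, and of 1.31, 2.74 and 7.46 in RERE. The same 3 values were 1.21, 2.58 and 7.67 in EpiRE, and 1.21, 3.54 and 7.28 in BRE. The ranges overlapped, with the top of the WT range the lowest of the 4. Cd74 had medians of 27.6 RPKM in WT and 34.1 in RERE, with 35.2 in EpiRE and 38.3 in BRE. Cd86 had medians of 0.156 RPKM in WT and 0.292 in RERE, with 0.267 in EpiRE and 0.286 in BRE. Csf1r medians lay closer together, at 3.82, 4.11, 4.50 and 4.67 RPKM in that order. The tables of the genotypes were normalized separately, so these level differences were not tested.

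**Figure D1:**
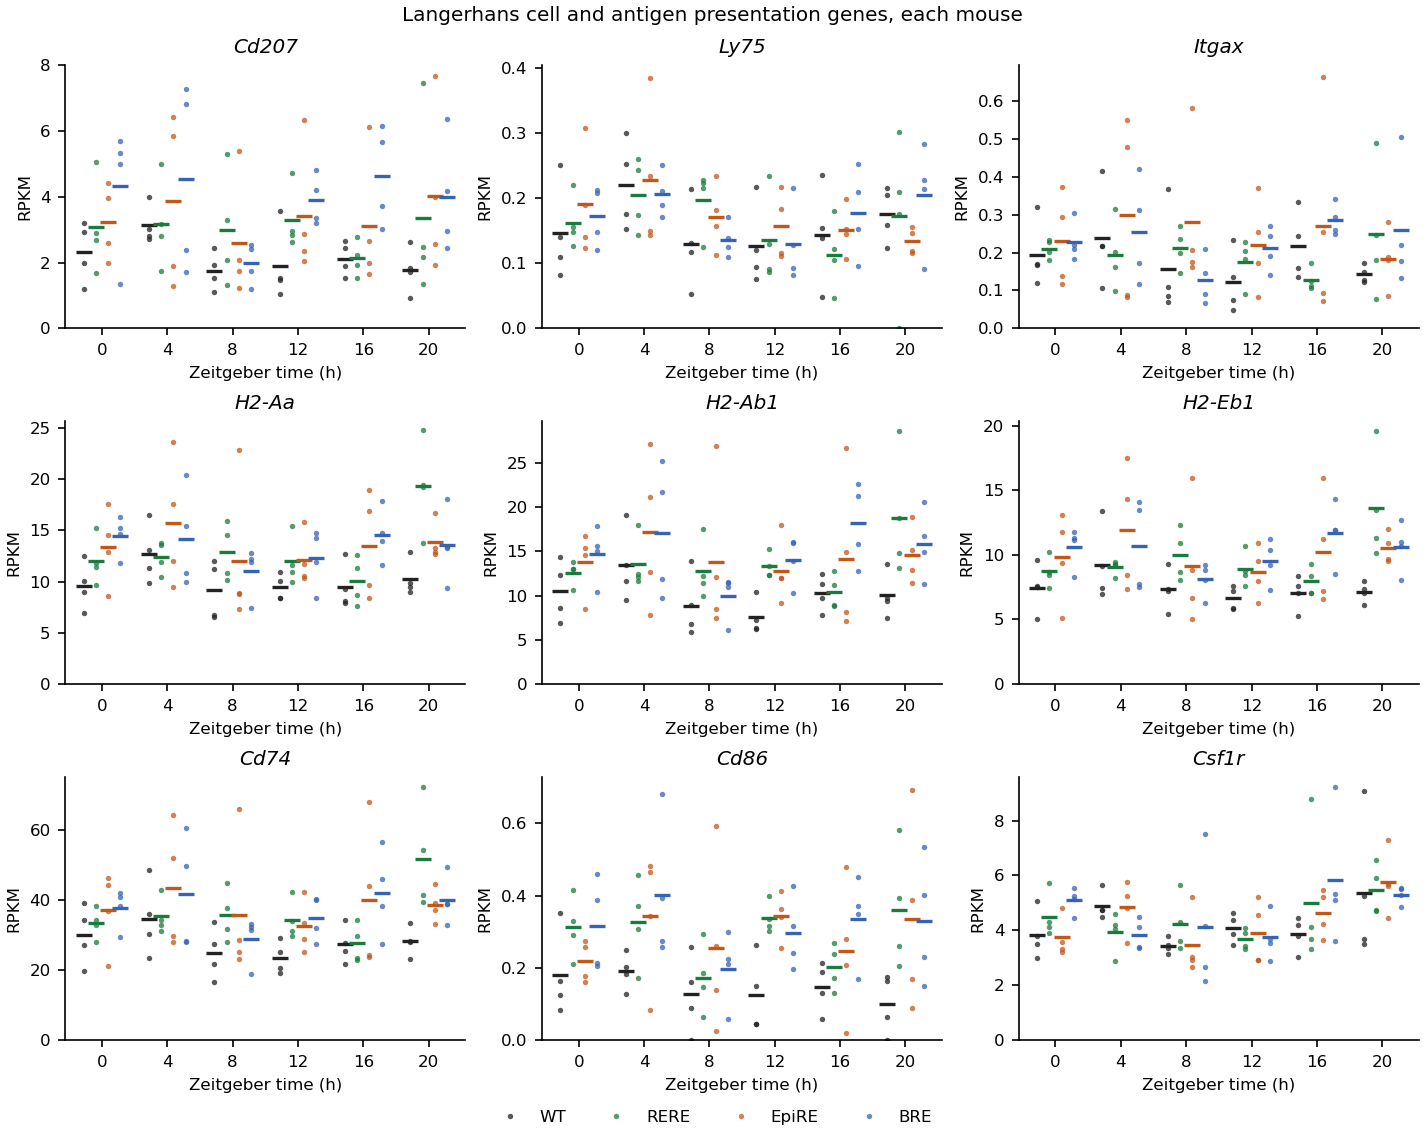
RPKM of each of the 9 genes (linear axes from 0) against zeitgeber time in hours, with 1 point per mouse and a horizontal bar for the mean of the 4 mice of a genotype and time. Single mice reach 72.5 RPKM for Cd74 (RERE, ZT20) and 9.23 RPKM for Csf1r (BRE, ZT16).

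Whether these genes follow the day was tested per genotype by limma with a 24 h harmonic, and a rhythm was called at a Benjamini-Hochberg adjusted p under 0.05 over all 12144 genes. None of the 6 tested members was called in WT, where 34.4% of all tested genes were. The count was also 0 of 6 in RERE (16.4% of all genes), 0 of 6 in EpiRE (2.87%) and 0 of 6 in BRE (17.1%). At an unadjusted p under 0.05 the counts were 0, 0, 0 and 1, the last being Csf1r. Over all 12144 genes, 5513, 3819, 2485 and 4150 were under that cut in the same order. With no filter on low values, Cd86, Itgax and Ly75 were not called in any genotype either (lowest adjusted p = 0.388 by limma, Itgax in BRE).

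The errors of the fitted sizes were wide. A fitted size cannot be below 0 and is larger where mice vary more, as they did for these genes. The median peak-to-trough log2 difference of the 6 members was 0.35 in WT and 0.28 in RERE, with 0.28 in EpiRE and 0.45 in BRE. Over all tested genes the medians were 0.23, 0.18, 0.15 and 0.20. For Cd207 the fitted size was 0.53 ± 0.31 (SE) in WT and 0.28 ± 0.37 in RERE, with 0.38 ± 0.45 in EpiRE and 0.71 ± 0.40 in BRE. None of these fits of Cd207 was called, and what size could be detected over mice with this spread was not tested.

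**Figure D2:**
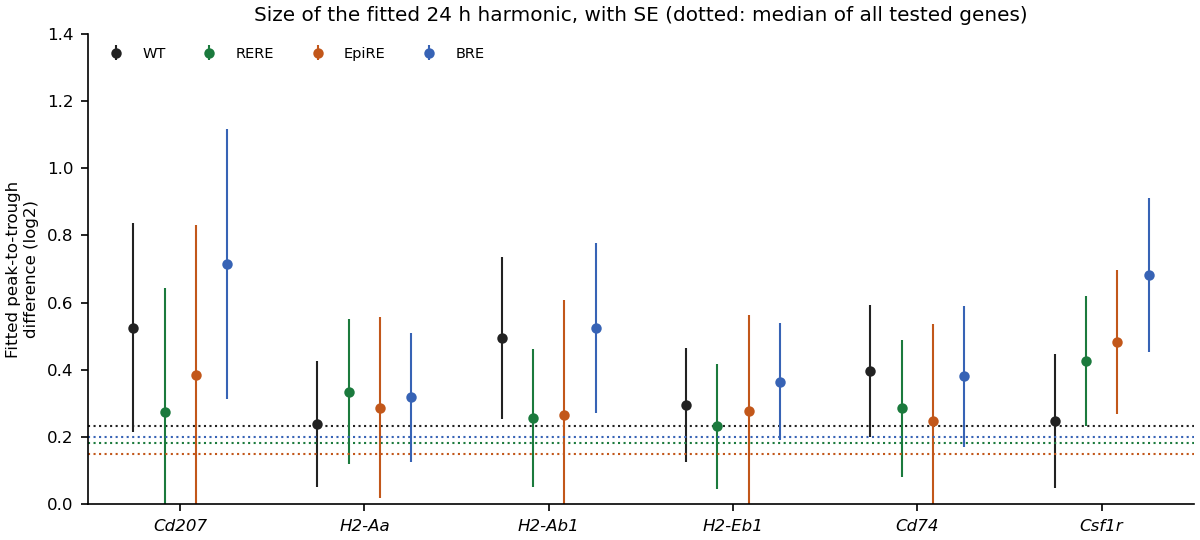
Fitted peak-to-trough log2 difference of a 24 h harmonic for the 6 tested genes in each genotype, with bars for ± 1 SE cut off at 0, and dotted lines for the median of all 12144 tested genes. Csf1r in BRE has the fit with the largest size relative to its error (0.68 ± 0.23), and Cd207 has the widest errors.

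In WT epidermis Cd207 averaged 3.13 ± 0.58 RPKM (SD, n = 4) at ZT4 and 1.76 ± 0.57 at ZT8. These are the times of its highest and lowest mean. The 4 WT mice at ZT4 had 2.82, 3.99, 3.01 and 2.72 RPKM, and those at ZT8 had 1.11, 2.44, 1.93 and 1.54. The 2 groups did not overlap, though the rhythm over all 6 times gave an adjusted p of 0.379 by limma. In WT, H2-Aa, H2-Ab1, H2-Eb1 and Cd74 also had their highest mean at ZT4, for example 34.6 ± 10.6 RPKM for Cd74 against 23.5 ± 4.58 at ZT12. The adjusted p values of these 4 genes in WT were between 0.244 and 0.566.

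In BRE epidermis, where K14Cre is absent, Cd207 was at 2.55, 1.75, 1.21 and 2.40 RPKM at ZT8, and at 1.71, 2.37, 6.83 and 7.28 at ZT4. The mice at ZT4 fell into a low and a high pair. Averages over 4 mice were 4.64 ± 1.51 RPKM at ZT16 and 1.98 ± 0.62 at ZT8. These times held the highest and the lowest mean of Cd207 in BRE and were picked from these values. Their groups did not overlap (3.02 to 6.17 against 1.21 to 2.55 RPKM), while those at ZT4 and ZT8 did. H2-Aa, H2-Ab1, H2-Eb1 and Cd74 also had their lowest mean RPKM at ZT8 and their highest at ZT16 in BRE. For H2-Aa the ZT16 mean of 14.53 RPKM was close to the 14.48 at ZT0, and its highest log2 mean was at ZT0. None of the 5 genes passed the test (adjusted p = 0.276 to 0.429 by limma, the highest for H2-Aa).

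Csf1r, the receptor for interleukin 34 and CSF1, came nearest to a call. In BRE the 4 mice at ZT20 had 5.52, 5.49, 4.86 and 5.28 RPKM, and those at ZT12 had 2.88, 3.53, 3.67 and 4.87. Mice at ZT8 had 7.51, 2.16, 4.15 and 2.67 RPKM, and mice at ZT16 had 9.23, 5.33, 5.09 and 3.62. Replicate 1 at ZT8 and replicate 1 at ZT16 were far above the other mice of their groups. The fitted size was 0.68 ± 0.23 with a peak at ZT19.8 (adjusted p = 0.0932 by limma). Without the ZT8 replicate 1 the adjusted p was 0.0122 by limma, a call (16.6% of all genes were then called). Limma voom on the recovered reads also called Csf1r (adjusted p = 0.0487, 14.6% of all genes). Without the ZT16 replicate 1 it was not called (size 0.61 ± 0.20, adjusted p = 0.0953 by limma). Nor was it with the 6 times compared as separate groups (adjusted p = 0.297 by limma). The highest adjusted p, 0.487, was found without replicate 2 of every time, where 1.74% of all genes were called.

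In the other genotypes the fitted peak of Csf1r was at ZT20.2 in RERE (size 0.43 ± 0.19), ZT20.1 in EpiRE (0.48 ± 0.21) and ZT22.3 in WT (0.25 ± 0.20). None of these 3 rhythms was called (adjusted p = 0.259, 0.343 and 0.583 by limma). The WT fit rested on 1 mouse: without ZT20 replicate 2 its size was 0.14 ± 0.15 with a peak at ZT1.8. The mean at ZT20 was 5.37 ± 2.58 RPKM in WT and 5.47 ± 0.91 in RERE, with 5.75 ± 1.17 in EpiRE and 5.29 ± 0.31 in BRE (SD, n = 4 each).

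In RERE mice the class II genes stood highest at ZT20. The 6 times were also compared as separate groups instead of by a harmonic, which tests for any difference between times. H2-Aa was then called (adjusted p = 0.0488 by limma), 1 of 6 members beside 10.8% of all genes. H2-Aa, Cd74, H2-Eb1 and H2-Ab1 had an unadjusted p under 0.05, as did 3329 of all 12144 genes. These 4 members varied together from mouse to mouse, so they are not separate results. ZT20 and ZT16 held the highest and the lowest mean of H2-Aa and of Cd74, and were picked from these values. H2-Aa was at 19.2, 13.8, 19.4 and 24.7 RPKM in the 4 mice at ZT20 and at 12.6, 11.3, 8.67 and 7.65 at ZT16, with no overlap. Cd74 was at 39.4, 41.4, 54.2 and 72.5 RPKM at ZT20 and at 34.3, 29.8, 23.5 and 22.8 at ZT16, again with no overlap.

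Cd207 had 1.36, 2.17, 2.46 and 7.46 RPKM at ZT20 and a range of 1.53 to 2.79 at ZT16, so its groups overlapped. The mouse with 7.46 RPKM, replicate 4, also had the highest Cd74 and H2-Aa. Without it no member was called: the adjusted p of H2-Aa was 0.133, and its difference between the highest and the lowest time went from 0.93 to 0.80 on the log2 scale. The 6-time comparison called 0 of 6 members each in WT (35.1% of all genes), EpiRE (2.13%) and BRE (13.4%). An unadjusted p under 0.05 was found for 1 member in EpiRE and none in the other 2. Under that cut were 5728 of all 12144 genes in WT, 2648 in EpiRE and 4073 in BRE.

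The genotypes were then compared for their daily course, by limma with terms for genotype by harmonic. No member was called as different in any of the 6 pairs of genotypes, which does not show that their courses were alike. The count was 0 of 6 for BRE against WT, where 20.2% of all genes differed, and the lowest adjusted p there was 0.241 (H2-Eb1). It was 0 of 6 for EpiRE against WT (8.51% of all genes), RERE against WT (0.453%), EpiRE against RERE (4.04%), BRE against RERE (4.79%) and EpiRE against BRE (13.9%). In none of the pairs did a member reach an unadjusted p under 0.05, with the lowest at 0.112. Of all 12144 genes, between 1659 (RERE against WT) and 4299 (BRE against WT) did. Pairs with a genotype in common share its mice.

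Much of the variation of these genes lay between mice of the same genotype and time. The SD of Cd207 between such mice was 0.69 on the deposited log2 scale, larger than that of 98.6% of tested genes, while counting error at its median of 67 reads comes to 0.18. For Cd74 the SD was 0.40 beside a counting error of 0.05, and for H2-Ab1 0.47 beside 0.08. Csf1r had an SD of 0.36 beside 0.07. Cd86, Itgax and Ly75 had SDs of 0.74, 0.69 and 0.61 beside counting errors of 0.46, 0.38 and 0.37. The sum of H2-Aa, H2-Ab1, H2-Eb1 and Cd74 ranged from 35.7 to 97.6 RPKM in WT and 46.3 to 145 in RERE, with 43.3 to 133 in EpiRE and 38.8 to 120 in BRE.

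The class II genes and Cd74 varied together. As a description over 96 libraries, each taken as its deviation from the mean of its genotype and time, Pearson's r among H2-Aa, H2-Ab1, H2-Eb1 and Cd74 was between 0.90 and 0.95. Points of such a correlation share a library, and the genes share its RNA preparation and depth. The ratio of H2-Eb1 to Cd74 had a log2 SD of only 0.12 between mice, less than the 0.40 of Cd74 alone. It ran from 0.203 to 0.333 over all 96 mice, a narrow band beside the range of Cd74 itself.

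Cd207 went with this group but moved over a wider range. Its r was 0.80 with Cd74, 0.83 with H2-Ab1, 0.75 with H2-Eb1 and 0.72 with H2-Aa. The mouse with the highest Cd207 of its 4 was also the highest for Cd74 in 20 of 24 groups. Per log2 unit of Cd207, Cd74 differed by 0.46, H2-Ab1 by 0.56 and H2-Aa by 0.39 log2 units (least squares through the group means, with the counting error of Cd207 left in). The ratio of Cd207 to Cd74 had a log2 SD of 0.44 and ran from 0.0362 to 0.173.

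The weakly read members also varied with the others. Itgax had an r of 0.79 with H2-Ab1 and 0.70 with Cd207 in spite of its 14.5 reads, and Cd86 had an r of 0.52 to 0.65 with Cd207, Itgax, Cd74 and the class II genes. Ly75, which had about as many reads as Itgax, had an r of 0.25 to 0.46 with the others apart from Csf1r. For the same partners its r was 0.66 to 0.79 within EpiRE and 0.24 to 0.40 within WT. It was -0.17 to 0.60 within RERE and 0.04 to 0.27 within BRE. The r of Itgax with H2-Aa was 0.15 in RERE and 0.84 in EpiRE. These differences between genotypes were not tested.

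**Figure D3:**
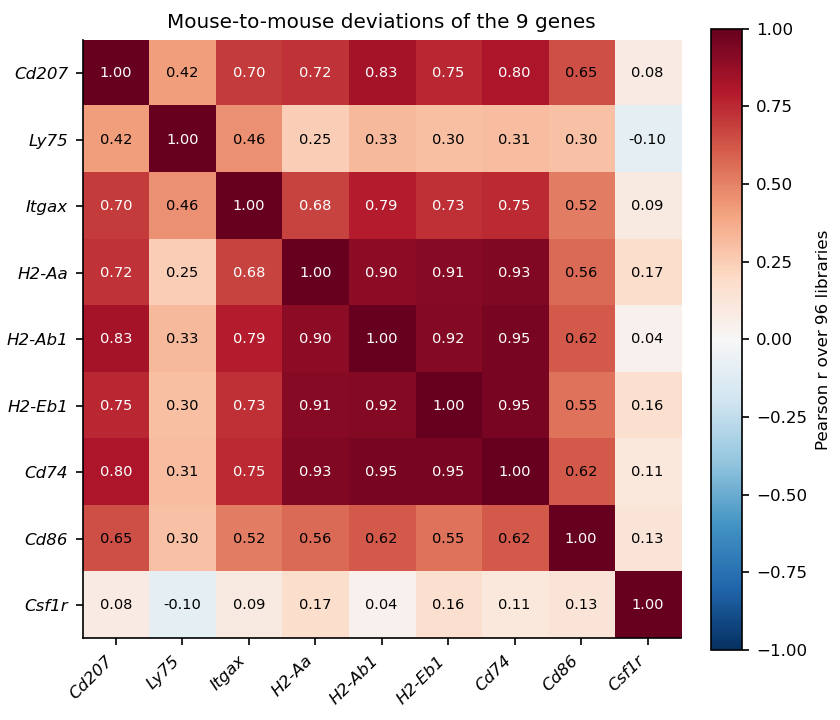
Pearson's r between the mouse-to-mouse deviations of the 9 genes over 96 libraries, each value a deviation on the log2 scale from the mean of its genotype and time. The block of Cd207, the class II genes, Cd74 and Itgax holds values from 0.68 to 0.95, and the row of Csf1r holds values from -0.10 to 0.17.

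Csf1r had correlations near 0 with the other markers. Its r over 96 libraries was 0.08 with Cd207 and 0.11 with Cd74, and it lay between -0.10 and 0.17 for all 8 other genes. The mouse with the highest Csf1r of its 4 was the highest for Cd207 in 8 of 24 groups. The ratio of Csf1r to Cd207 ran from 0.462 to 5.07 (log2 SD 0.76). Within EpiRE the r of Csf1r was 0.61 with Cd207 and 0.65 with Cd74 (24 libraries). It was -0.20 and -0.09 in WT, -0.24 and -0.29 in RERE, and 0.00 and -0.13 in BRE for the same partners. The difference between genotypes was not tested.

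High class II expression in EpiRE sat in a few mice. The 3 highest sums of class II genes and Cd74 were 133, 132 and 130 RPKM at ZT4 replicate 4, ZT8 replicate 2 and ZT16 replicate 3. These mice had 6.43, 5.41 and 6.13 RPKM of Cd207 and 5.26, 5.21 and 5.46 RPKM of Csf1r. In RERE the highest mouse, ZT20 replicate 4 (145 RPKM), had 7.46 RPKM of Cd207 and 4.69 of Csf1r. The mouse at the top in BRE, ZT4 replicate 4 (120 RPKM), had 7.28 RPKM of Cd207 and 3.38 of Csf1r.

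Csf1r instead varied with genes that are no Langerhans cell markers. In each of the 4 genotypes, 13 tested genes (2 of them predicted genes) had an r of at least 0.7 with Csf1r, a threshold chosen after the values were seen. The 11 with names were Tsku, Stim2, Plxna4, Tusc5, Nav1, Stx3, Hyou1, Zscan26, Golt1b, Igf2bp3 and Klhl40. Over 96 libraries their r was between 0.82 and 0.90, and within BRE it was 0.97 for Tsku, a secreted leucine-rich repeat protein, and for Plxna4, a semaphorin receptor. Tsku had an r of -0.17 with Cd207. No gene outside the 9 had an r of at least 0.7 in each genotype with the mean deviation of the 9 genes. That mean takes in Csf1r itself and the weakly read Cd86, Itgax and Ly75, so the 2 results are not a like comparison.

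In 4 of 96 mice Csf1r was at least 0.7 log2 units above the group mean, and the same libraries were as far up for Tsku. The limit of 0.7 was chosen after the values were seen. Their Csf1r levels were 9.06 RPKM (WT, ZT20 replicate 2), 8.78 (RERE, ZT16 replicate 3), 7.51 (BRE, ZT8 replicate 1) and 9.23 (BRE, ZT16 replicate 1). On the log2 scale they were 0.86, 0.93, 1.03 and 0.75 above their group means for Csf1r, and 1.07, 1.12, 1.06 and 1.08 above for Tsku. For Cd207 the same mice deviated by 0.05, -0.10, 0.41 and -0.55. Without these 4 libraries, and with group means taken over the other 92, the r of Csf1r with the 11 genes was between 0.67 and 0.84, and that with Cd207 was 0.11.

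Tsku and Plxna4 passed the rhythm test in EpiRE and BRE. In BRE the fitted size was 1.09 for Tsku (peak ZT19.5, adjusted p = 0.0328 by limma) and 1.16 for Plxna4 (peak ZT19.5, adjusted p = 0.0302). In EpiRE it was 1.06 for Tsku (peak ZT19.0, adjusted p = 0.0229) and 1.09 for Plxna4 (peak ZT19.0, adjusted p = 0.0246). Of the 11 genes, 4 were called in EpiRE (with Zscan26 and Golt1b), 2 in BRE, 1 in WT (Golt1b) and 0 in RERE. The shares over all tested genes were 2.87% in EpiRE, 17.1% in BRE, 34.4% in WT and 16.4% in RERE. These 11 genes were picked for varying with Csf1r, so their calls are not separate results.

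**Figure D4:**
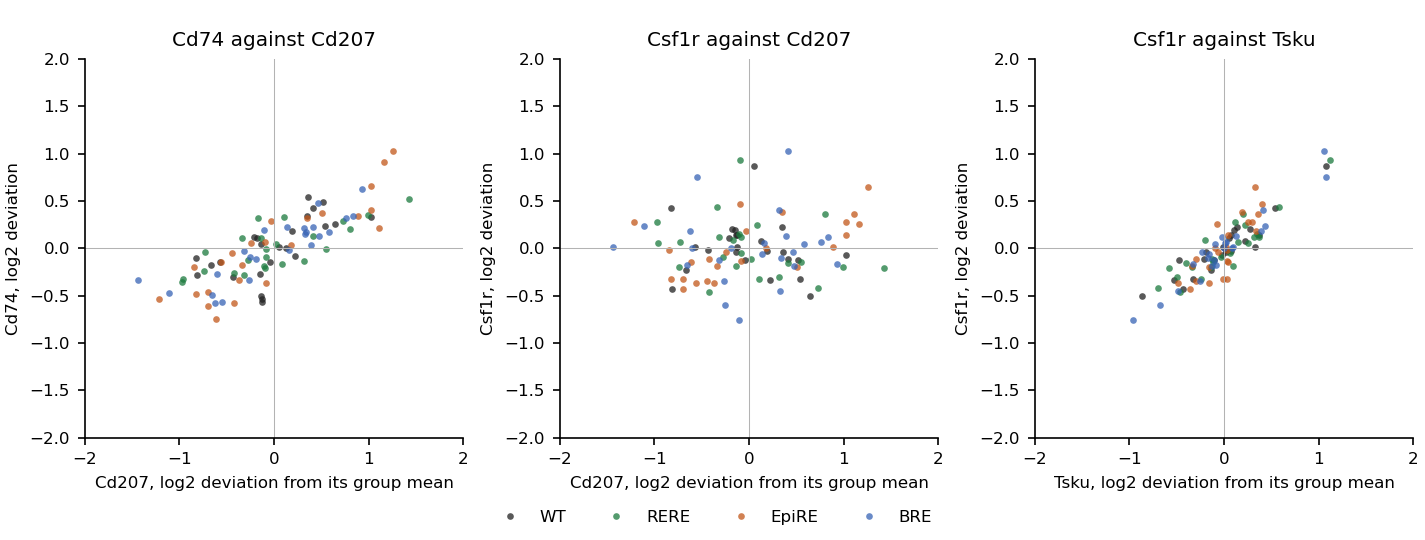
Deviation of each of 96 mice from the mean of its genotype and time, in log2 units: Cd74 against Cd207, Csf1r against Cd207, and Csf1r against Tsku, coloured by genotype. Cd74 runs with Cd207 (r = 0.80), Csf1r has an r of 0.08 with Cd207, and Csf1r runs with Tsku (r = 0.90), where 4 mice lie apart at the upper right.

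The genes outside the 9 whose deviations were most like theirs were found by the smallest of the 4 within-genotype r with the mean standardized deviation of the 9 genes (24 libraries per genotype). In order they were Fxyd5, Tnfaip2, Rgs1, Mfge8, Arhgap45, Atp2a3, Lcp1, Grasp, Klrb1b, Cd7, Soat1 and Il2rb, with 1 predicted gene passed over. The smallest r was 0.64 for Fxyd5, 0.61 for Tnfaip2, 0.59 for Rgs1 and 0.51 for Mfge8, and over 96 libraries Tnfaip2 had 0.79 and Mfge8 0.76. Lcp1 encodes an actin-bundling protein of leukocytes, Cd7 a surface protein of T and NK cells, and Il2rb a subunit of the receptor for interleukins 2 and 15. Of all 12138 tested genes outside the members, 102 had an r of at least 0.4 over 96 libraries, and the median was -0.03.

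Of the genes that load class II molecules or control them, 4 of 16 varied with the 9 genes at an r of at least 0.4. H2-DMa and H2-DMb2, which exchange the class II peptide, had an r with the 9 genes of 0.59 and 0.54, and Ctss, the protease that trims the invariant chain, had 0.69. Ciita, the class II coactivator, had 0.47 on a median of 39 reads. Ctsl, Lgmn and Ifi30, which also work on antigen in lysosomes, had -0.13, -0.03 and 0.10. Of 16 genes in the list that were found, 12 were tested, and the rhythm calls fell on genes with an r of 0.10 or less. They were 3 of 12 in WT (Rfx5, Ctsl and Ifi30), 3 in RERE and 3 in BRE (Rfx5, Ctsl and Lgmn in each), and 0 in EpiRE. Calls over all tested genes came to 34.4% in WT, 16.4% in RERE, 17.1% in BRE and 2.87% in EpiRE. Rfx5, a DNA-binding factor of class II promoters, peaked at ZT0.5 in WT with a size of 0.53 ± 0.11 (adjusted p = 0.00217 by limma), at ZT0.7 in RERE and at ZT1.1 in BRE. Its r with the 9 genes was 0.06. Ctsl had a size of 0.89 ± 0.14 in WT with a peak at ZT12.5 and 0.90 ± 0.16 in RERE with a peak at ZT14.1.

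MHC class I genes, which nearly all cells use, had 0 of 15 members at an r of at least 0.4 with the 9 genes, and a median of 0.01. Rhythms were called for 4 of 15 in WT (Tap1, Calr, Canx and Pdia3), 3 in RERE (Calr, Canx and Pdia3), 3 in EpiRE (Tap1, Calr and Pdia3) and 5 in BRE (Tap1, Psmb9, Erap1, Calr and Pdia3). Beside these counts, 34.4%, 16.4%, 2.87% and 17.1% of all tested genes were called in the same order. Calr, the chaperone calreticulin, had a size of 0.90 ± 0.12 in WT with a peak at ZT21.1. The median sizes of the list were 0.17 in WT and 0.14 in RERE, with 0.17 in EpiRE and 0.20 in BRE, beside 0.23, 0.18, 0.15 and 0.20 over all tested genes.

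Signals for Langerhans cell upkeep differed widely in level. Il34 had a median of 78.9 RPKM, and Gas6, a ligand of the receptor Axl, had 166 RPKM. Others were lower, with 8.01 RPKM for Csf1, 2.11 for Flt3l and 0.508 for Ccl20, and Csf2 had a median of 0 reads. Of 17 tested genes in that list 4 were rhythmic in WT (Il34, Tgfb1, Tgfbr1 and Acvr1b), 2 in RERE (Acvr1b and Gas6), 1 in EpiRE (Itgav) and 3 in BRE (Il34, Acvr1b and Axl). Over all tested genes the called share was 34.4% (WT), 16.4% (RERE), 2.87% (EpiRE) and 17.1% (BRE). Il34 peaked at ZT3.4 in WT with a size of 0.38 (adjusted p = 0.0314 by limma), and Tgfb1 at ZT16.4 with a size of 0.54 ± 0.07 (adjusted p = 6.075e-05). Il34 had an r of -0.14 with the 9 genes and of 0.05 with Csf1r. Csf2rb, the shared receptor chain for GM-CSF, had an r of 0.69.

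Among genes of maturation and costimulation, 6 of 14 had a median under 10 reads, with Cd40 at 1, Cd80 at 2 and the lymph node homing receptor Ccr7 at 2. Of 7 tested, 1 was called in WT (Cdh1), 2 in RERE (Relb and Tnfrsf11a), 0 in EpiRE and 2 in BRE (Cd83 and Relb). Cd83, a surface marker of mature dendritic cells, had an r of 0.50 with the 9 genes and a size of 0.80 ± 0.21 in BRE with a peak at ZT23.5 (adjusted p = 0.0332 by limma). In the interferon gamma list, whose products can induce class II genes, 2 of 10 tested genes were called in WT (Ifngr1 and Gbp2), 1 in RERE (Ifngr2), and 0 in EpiRE and BRE. No gene of the 12 had an r of 0.4 with the 9 genes, and Ifng itself had a median of 1 read. The rhythm counts of both lists stand beside 34.4% (WT), 16.4% (RERE), 17.1% (BRE) and 2.87% (EpiRE) of all tested genes.

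Other dendritic and leukocyte genes went partly with the 9. Of 20 genes, 9 had an r of at least 0.4, led by Ctss (0.69), Laptm5 (0.61), Ptprc (0.57) and Coro1a (0.51), which are also expressed by T cells or other leukocytes. Epcam, Id2 and Cd24a, which keratinocytes express too, had an r of 0.03, 0.22 and -0.02. Of 14 tested, 2 were called in WT (Sirpa and Cd24a), 0 in RERE and EpiRE, and 2 in BRE (Ptprc and Irf4). Among all tested genes, WT had 34.4% called and BRE 17.1%, with 16.4% for RERE and 2.87% for EpiRE. Ptprc, the leukocyte antigen CD45, had a size of 1.15 ± 0.27 in BRE with a peak at ZT23.3 (adjusted p = 0.0185 by limma).

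Markers of T cells, which share the epidermis with Langerhans cells, varied with the 9 genes. Of 12 found, 9 had an r of at least 0.4 (median 0.45), among them Cd3g (0.51), Cd3e (0.50) and Cd7 (0.54). Their summed level ranged from 38.5 to 102 RPKM in WT and 31.6 to 95.5 in RERE, with 42.9 to 91.5 in EpiRE and 49.9 to 107 in BRE. Thy1 held much of that sum and had an r of -0.20. Rhythms were called for 1 of 9 tested in WT and in RERE (Thy1 in both), 0 in EpiRE and 2 in BRE (Cd3d and Il2rb). The called shares of all tested genes were 34.4%, 16.4%, 2.87% and 17.1% for the genotypes in that order. Xcl1, Cd3e and Cd3g had fitted sizes of 1.05, 1.05 and 0.93 in WT but no call (adjusted p = 0.288, 0.178 and 0.187). Gzmb, of cytotoxic cells, had a median of 0 reads. The part of T cell RNA in the variation of the 9 genes was not tested.

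Markers of other antigen-presenting cells were mixed. The macrophage and dermal dendritic genes C1qb, C1qc, Fcgr1, Cd209a and Clec9a had a median of 0 reads, Clec9a with 0 reads in all 96 libraries, and 9 of the 15 genes in that list had a median under 10 reads. Others were well read: Ly6c2, of monocytes, had a median of 8.30 RPKM, Xcr1, a receptor of cross-presenting dendritic cells, had 6.90 RPKM (501.5 reads), above Cd207 and Csf1r, and Mgl2, a lectin of dermal dendritic cells and macrophages, had 42 reads. Adgre1, which encodes F4/80 and is also found on Langerhans cells, had an r of 0.64 with the 9 genes on a median of 13.5 reads. The summed level of that list ranged from 13.7 to 26.2 RPKM over all genotypes and was mostly that of Xcr1 and Ly6c2, whose r with the 9 genes was -0.04 and -0.21. The part of such cells in the levels of the 9 genes was not tested. All 7 mast cell genes had a median of 0 reads, as did Cd79b and Ms4a1 of B cells, and 4 of 5 endothelial genes. Fibroblast genes summed to 8.65 to 41.2 RPKM, with r values from -0.23 (Sparc) to 0.36 (Col1a1) and a median of 0.30, and their part was not tested either. Keratinocyte markers summed to 20960 to 31460 RPKM, and their r ranged from -0.38 to 0.33 (median -0.12). Of 12 tested keratinocyte genes, 4 were called in BRE (Itga6, Krt10, Sbsn and Ivl), 1 in WT (Ivl) and 0 in the other genotypes. Of 3 tested macrophage and dendritic genes, 1 was called in BRE (Ly6c2) and 0 elsewhere, and 0 of 2 fibroblast genes were called in any genotype. For comparison, calls covered 17.1% (BRE), 34.4% (WT), 16.4% (RERE) and 2.87% (EpiRE) of all tested genes.

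**Figure D5:**
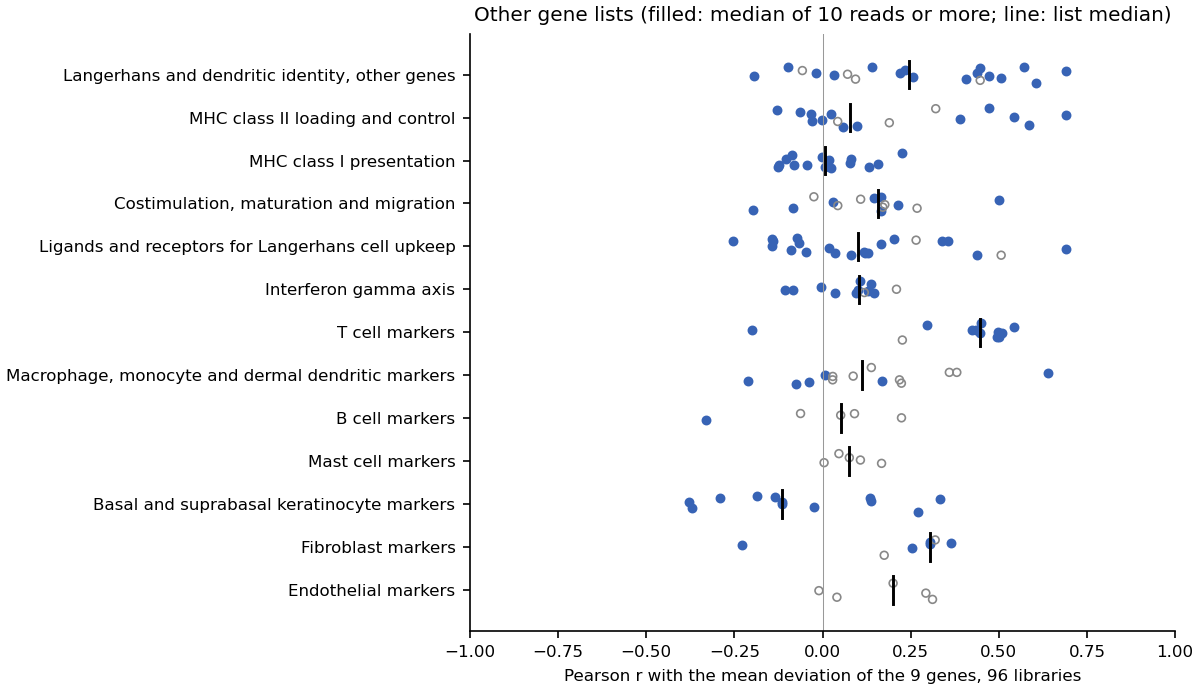
Pearson's r of each gene of 13 other lists with the mean deviation of the 9 genes over 96 libraries, with filled points for genes of a median of 10 reads or more, open points below that, and a line at the median of each list. T cell markers have the highest median (0.45), and MHC class I genes lie around 0.

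The authors' deposited tables hold their own rhythm statistics, JTK_CYCLE and BIOCYCLE, for all 9 genes. No member had a q-value under 0.05 by either method in any genotype in the authors' deposited tables. The lowest JTK_CYCLE q-value there was 0.17, for Csf1r in BRE, and the lowest BIOCYCLE value was 0.388, again for Csf1r in BRE. In WT the lowest values in the authors' deposited tables were 0.515 by BIOCYCLE and 0.776 by JTK_CYCLE, for Cd207 in each.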

How the data were processed

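The authors deposited a table per genotype with log2 values for each gene and library, and q-values of 2 rhythm methods. Per the submitters' processing notes the tools were Trimmomatic 0.36, HISAT2 2.2.1, SAMtools 1.3.1, featureCounts 1.6.0 and edgeR, on mm10. The deposited log2 values were read as log2 RPKM with a prior of 2 reads, which was inferred from the values. Under that reading 99.759% of values gave whole reads within 0.05, for 22330 of 22384 genes, and RPKM in the text comes from those reads. For the other 54 genes it is the back-transformed deposited value. A further 96 columns of per-sample values were not used.

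Tests used limma 3.58.1 (R 4.3.3; lmFit, eBayes with trend) on the deposited log2 values, for genes averaging 1 RPKM or more. A harmonic of 24 h was tested with 2 df and Benjamini-Hochberg adjustment over 12144 genes, within a genotype or as a difference between genotypes. Sizes are on the log2 scale with the prior, which understates differences of low genes. Alternatives were 6 separate times, another library scaling, no filter, log2(RPKM + 1), a replicate block, leaving out libraries, and limma voom on the recovered reads. Positions are from GENCODE M21.

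The members and gene lists were chosen with earlier results of these data known. From each list the text names up to 4 genes with the lowest rhythm p, any gene needed to state a small count, the 12 genes most like the members, and some named after their values were seen. Each library is from its own mouse per the labels, and equal replicate numbers were not taken as pairs. Depth was 11580000 to 33320000 reads, and counting error is given beside the spread. Sequences of the other members are not used here.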

Additional observations from a re-analysis of the deposited data

Results flagged for a closer look

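In groups of 4 mice, a mouse far from the other 3 was found in 9 of 216 groups by Dixon's test at its 95% limit, and chance marks about 1 group in 20. In BRE at ZT8, replicate 3 was the lowest for 3 antigen presentation genes: Cd74 at 19.0 RPKM (31.5 to 33.1 in the others), H2-Aa at 7.42 RPKM (12.0 to 12.7) and H2-Ab1 at 6.12 RPKM (10.9 to 11.6). In BRE at ZT0, replicate 1 was the lowest for Cd207, the langerin gene, at 1.35 RPKM (4.99 to 5.70 in the others) and for H2-Eb1 at 8.30 RPKM (11.1 to 11.7). In RERE at ZT4, H2-Ab1 was high in replicate 3 at 17.9 RPKM (11.7 to 12.4) and H2-Eb1 low in replicate 2 at 8.24 RPKM (9.24 to 9.41). H2-Aa was high in EpiRE at ZT20 in replicate 1 at 16.7 RPKM (12.7 to 13.3). Ly75 was low in RERE at ZT8 in replicate 2 at 0.124 RPKM (0.215 to 0.228), a level that rests on few reads.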

How the results depend on the processing

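The number of members called was 0 in each of the 4 genotypes and 6 pairs. Of 1188 recomputed member results, 1183 stayed on the same side of the threshold and 5 passed it only in an alternative. With no call in the main fits, none could be lost or reversed. The count became 1 in RERE with 6 separate times (H2-Aa, adjusted p = 0.0488 by limma). It became 1 in BRE (Csf1r) by voom on recovered reads (adjusted p = 0.0487). Leaving out a replicate number or a library gave counts of 0 to 1 in BRE and 0 elsewhere: Csf1r was called without replicate 1 (adjusted p = 0.0175) and without BRE ZT8 replicate 1 (0.0122). Leaving out a replicate number lowered the calls over all genes in most fits, to 6 of 12144 in EpiRE (without replicate 1) and 211 in BRE (without replicate 2), so a count of 0 there says nothing of the members. Without BRE ZT8 replicate 1 and BRE ZT16 replicate 1 together the count was 1 (0.00544), and these were chosen after their Csf1r values were seen, so this value is a description. With the replicate block 0 members were called in every comparison. Same-numbered mice had a mean correlation of -0.06 to 0.09, and the numbers were not taken as pairs. Whether same-numbered mice shared a batch was not tested. Of 24 libraries per genotype, 7 (WT), 10 (RERE), 4 (EpiRE) and 5 (BRE) correlated best with their own number. Voom on recovered reads, the fit without the 2 BRE libraries, and the 6-time fit without RERE ZT20 replicate 4 were added after seeing the data. Depth limits Cd86, Itgax and Ly75, whose medians of 10 to 15 reads leave counting errors of 0.37 to 0.46 in log2.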
